A study of Mus musculus with 66 samples.

Results

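Imprinted genes are read mainly from either the maternal or the paternal chromosome, and 8 of them that have been tied to the growth of muscle were followed in C2C12 cells, a mouse myoblast line that fuses into myotubes when serum is withdrawn. The genes are H19, Meg3, Dlk1, Peg3, Mest, Plagl1, Grb10 and Ndn. They were chosen by name, with earlier results of these data known, and all 8 were found among the 22489 genes of the mRNA-Seq table. The table holds C2C12 cells without a transgene (WT) and 9 derived lines, each with a doxycycline-inducible (Tet-On) transgene for one H3 variant with GFP at its N-terminus. The expressed H3 was of the H3.1/H3.2 type in 3 lines (H3.1, H3.2 and H3t) and of the H3.3 type in 6 lines (H3.3, H3mm7, H3mm11 and H3mm12, together with H3mm13 and H3mm16). Every line gave 1 growth library, from subconfluent cells in medium rich in serum, and 1 differentiated library, from cells kept for 48 h in medium with horse serum. The transgene was inserted by transposition, cells were selected with the drug G418 and sorted for GFP, and all lines go back to the same myoblasts. The 10 lines are therefore the units of comparison. A line has no second library of the same state, and the H3 it expresses cannot be told apart from other differences between the lines. H3t is read here from the columns headed H3mmT, the only ones that could be that line.

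Imprinting is laid down in the germ line as DNA methylation at control regions, and neighbouring imprinted genes often share such a region. Many paternally expressed genes promote growth and many maternally expressed genes restrain it, and a number of them converge on signalling by insulin-like growth factors. H19 is a maternally expressed RNA that is not translated. It is abundant in embryonic and regenerating muscle and lies beside Igf2, the paternally expressed gene of a growth factor. Meg3, also a maternally expressed noncoding RNA, and Dlk1, which encodes a membrane protein related to Notch ligands, share another imprinted region. Peg3 and Plagl1 encode zinc finger proteins, Mest encodes a protein with a hydrolase fold, and Ndn encodes a protein of the MAGE family that promotes myogenic differentiation, all 4 from the paternal copy. Grb10 encodes an adaptor that restrains signalling by the insulin and IGF receptors.

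Values are FPKM, fragments scaled to the length of the transcript and to the mapped fragments of the library, so that levels can be compared between genes of different length. H19 lies at chr7:149761434-149764048 on the minus strand of mm9, Peg3 at chr7:6656603-6683132 on the minus strand, Mest at chr6:30673547-30698457 on the plus strand and Ndn, a gene with a single exon, at chr7:69493163-69494814 on the plus strand. H19 and Mest each hold a microRNA. The Mir675 hairpin lies in an exon of H19, on the same strand, and the Mir335 hairpin lies in an intron of Mest. The mature sequences of both are shown. Spliced RNA of H19 can carry its hairpin, whereas splicing removes the intron of Mest that holds Mir335. The level of Mest is thus no measure of RNA that carries the Mir335 hairpin. The microRNAs themselves were not measured. The sequences are those of RefSeq (GRCm38.p6), with the seed, bases 2 to 8, in capitals.
mmu-miR-675-5p: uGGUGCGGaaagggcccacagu
mmu-miR-675-3p: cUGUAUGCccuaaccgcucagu
mmu-miR-335-5p: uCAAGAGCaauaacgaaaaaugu
mmu-miR-335-3p: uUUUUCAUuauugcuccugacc
The 4 seeds differ from each other. The exons of Mest overlap those of Copg2, which is transcribed from the opposite strand. Whether the libraries kept strand is not given in the sources used here, so some reads of Mest and Copg2 may not be separable.

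The 8 genes spanned a wide range of levels. H19 was at least 27.6 FPKM in every library and Peg3 at least 8.45 FPKM. Mest reached 1 FPKM in 11 of 20 libraries and Ndn in 13 of 20. Grb10, Plagl1, Meg3 and Dlk1 did not reach 1 FPKM in any of the 20. The first 4 had a mean of at least 1 FPKM over all libraries and were tested, and the last 4 were not.

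**Figure D1:**
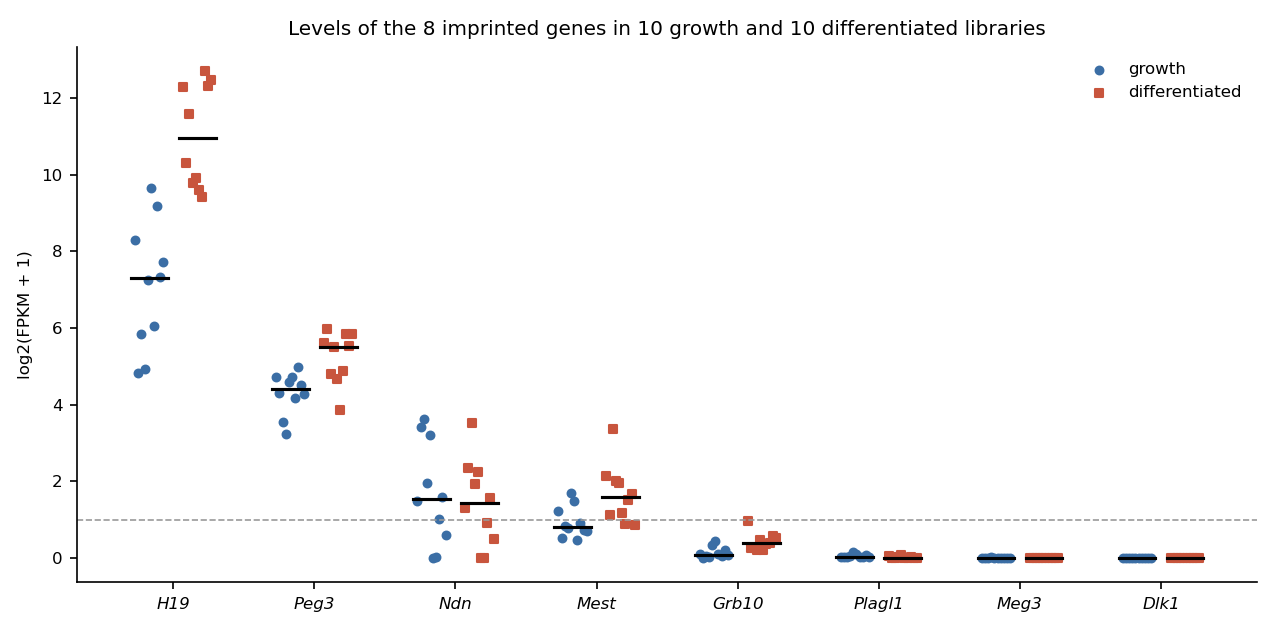
Levels of the 8 imprinted genes on the log2(FPKM + 1) scale, with 1 point per library for 10 growth (circles) and 10 differentiated (squares) libraries, the median of each group as a black bar and the level of 1 FPKM as a dashed line. H19 stands above the other genes in both states, and Grb10, Plagl1, Meg3 and Dlk1 stay below 1 FPKM.

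As sums over lists, the markers followed the label of the cells. The summed FPKM of 4 myoblast markers (Myod1, Myf5, Des and Cdh15) lay between 266 and 724 in growth and between 564 and 1614 in differentiated libraries. Des led this sum, with a median of 272 FPKM in growth. Myod1 in growth ran from 1.61 FPKM in H3.1 to 110 FPKM, with a median of 28.7. The sum of 6 genes of differentiated muscle (Myog, Myh3, Ckm, Actc1, Tnnc2 and Mybph) lay between 1.38 and 40.4 in growth and between 1366 and 10594 in differentiated libraries, and that of 5 genes of dividing cells (Ccnb1, Top2a, Mki67, Birc5 and Mcm5) between 427 and 694 and between 4.10 and 85.0. Some markers of other cell types were also present. The summed level of 5 adipocyte markers lay between 2.83 and 21.5 FPKM in growth and between 2.28 and 36.1 FPKM in differentiated libraries, led by Lpl (up to 34.4) and Fabp4 (up to 4.96), while Adipoq and Plin1 were at most 0.110 and 0.0375. That of 5 osteoblast markers lay between 8.31 and 14.8 FPKM and between 2.70 and 7.56 FPKM and was mostly Runx2, which was 8.03 to 14.5 FPKM in growth, while Ibsp was at most 0.00797. That of 4 endothelial and blood cell markers lay between 0.134 and 7.61 FPKM and between 0.0179 and 1.90 FPKM and was mostly Cdh5 (up to 7.53), while Ptprc was at most 0.0662 and Hbb-b1 was listed at 0 in every library. The part of these markers in the results below was not tested. WT stood apart: 388 genes were at least 8-fold lower in both WT libraries than in all 18 GFP-H3 libraries, and none of the 8 imprinted genes was among them. The number of reads behind the FPKM is unknown, so no counting interval can be given.

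Whether the imprinted genes change as myoblasts differentiate was asked first. H19 rose, and Peg3 and Mest were higher by less. Ndn was lower in 9 of 10 lines, by less than the spread between lines. Of the 4 tested genes, H19 was called higher in differentiated cells and none was called lower. A call means a Benjamini-Hochberg adjusted p below 0.05 over all 10954 genes tested by limma, together with a change of 1 or more in log2(FPKM + 1). Over all genes tested, 8.87% were called higher and 8.41% lower.

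H19 in growing cells was 311 FPKM in WT, 27.6 in H3.1, 56.6 in H3.2, 29.4 in H3t, 151 in H3.3, 799 in H3mm7, 65.4 in H3mm11, 578 in H3mm12, 161 in H3mm13 and 209 in H3mm16. In differentiated cells it was 5027 FPKM in WT, 1258 in H3.1, 3076 in H3.2, 881 in H3t, 964 in H3.3, 769 in H3mm7, 678 in H3mm11, 6619 in H3mm12, 5038 in H3mm13 and 5691 in H3mm16. It was higher in the differentiated library of 9 of 10 lines, and the states overlapped only through H3mm7, whose growth library was above the lowest differentiated libraries. The ratio of the differentiated to the growth level ran from 6.37 in H3.3 to 54.4 in H3.2 among those 9 lines, whereas in H3mm7 it was 0.962. The mean on the log2(FPKM + 1) scale was 7.11 ± 1.67 (SD, n = 10) in growth and 11.03 ± 1.35 (SD, n = 10) in differentiated libraries. The difference of 3.93 (SE 0.64, 95% interval 2.61 to 5.25, limma adjusted p = 1.97e-05) was larger than the spread between lines. In bulk RNA, more cells that express H19 and more H19 RNA per cell cannot be told apart. Without H3mm7 the difference was 4.37.

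Peg3 in growing cells ranged from 8.45 FPKM in H3t to 30.6 in H3mm12, with a median of 20.3. In differentiated cells it ranged from 13.4 FPKM in H3mm7 to 61.9 in H3.1, with a median of 44.7. The states overlapped through H3.2, H3.3, H3mm7 and H3mm11, whose differentiated levels were at most 28.3 FPKM. The differentiated level was the higher in 9 of 10 lines, from a ratio of 1.06 in H3.3 to 5.26 in H3t, and H3mm7 went the other way, from 25.3 to 13.4 FPKM. The difference was 0.94 on the log2(FPKM + 1) scale (SE 0.26, 95% interval 0.40 to 1.47, limma adjusted p = 0.00357), which passed the threshold on p and missed that on size. Without H3mm7 it was 1.14 and without H3.3 it was 1.03, and Peg3 was then called.

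Mest, with the lowest mean over the 20 libraries of the genes tested (1.83 FPKM), ranged from 0.394 FPKM in H3mm11 to 2.27 in H3.3 in growing cells, with a median of 0.762. In differentiated cells it ranged from 0.826 FPKM in H3mm16 to 9.32 in H3.2, with a median of 2.02. The next highest differentiated level was 3.44 FPKM in WT, so H3.2 stood well above the other lines, and the states overlapped. Mest was higher in the differentiated library of 9 of 10 lines, and in H3mm7 it was 1.80 FPKM in growth and 1.24 in differentiated cells. The difference was 0.73 on the log2(FPKM + 1) scale (SE 0.26, 95% interval 0.19 to 1.26, limma adjusted p = 0.0192), below the threshold on size. A pseudocount of 1 FPKM is large beside these levels: with 0.1 FPKM the difference was 1.15 and with 0.01 FPKM 1.23, and Mest was then called. Copg2, the gene on the other strand, differed by 0.72, with medians of 16.3 FPKM in growth and 27.6 FPKM in differentiated libraries, far above those of Mest. The part of Copg2 reads in the Mest levels was not tested.

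Ndn behaved otherwise. Its level in growing cells was 1.78 FPKM in WT, 9.76 in H3.1, 11.3 in H3.2, 2.86 in H3t, 8.33 in H3.3, 0.0244 in H3mm11, 1.02 in H3mm12, 1.99 in H3mm13 and 0.527 in H3mm16, and it was listed at 0 in H3mm7. In differentiated cells it was 1.48 FPKM in WT, 4.07 in H3.1, 10.4 in H3.2, 2.83 in H3t, 3.71 in H3.3, 0.897 in H3mm12, 1.96 in H3mm13 and 0.423 in H3mm16, and it was listed at 0 in H3mm7 and H3mm11. A line that was high in one state was high in the other, and the states overlapped almost wholly. Ndn was lower in the differentiated library of 9 of 10 lines and at 0 in both libraries of the remaining one, H3mm7. The ratio of the differentiated to the growth level was 0.417 in H3.1 and 0.445 in H3.3, and from 0.803 to 0.990 in the other 6 lines with a level above 0 in both states. The difference of -0.26 on the log2(FPKM + 1) scale (SE 0.52, 95% interval -1.34 to 0.82, limma adjusted p = 0.690) was within the spread between lines. That fit leaves out the pairing of the libraries of a line. With the line as a block the SE was 0.12 (limma adjusted p = 0.0792), and Ndn was still not called. The difference was -0.17 without H3.1 and -0.51 with a pseudocount of 0.01 FPKM. A value listed at 0 can be a failed estimate, so no fold is given against it.

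**Figure D2:**
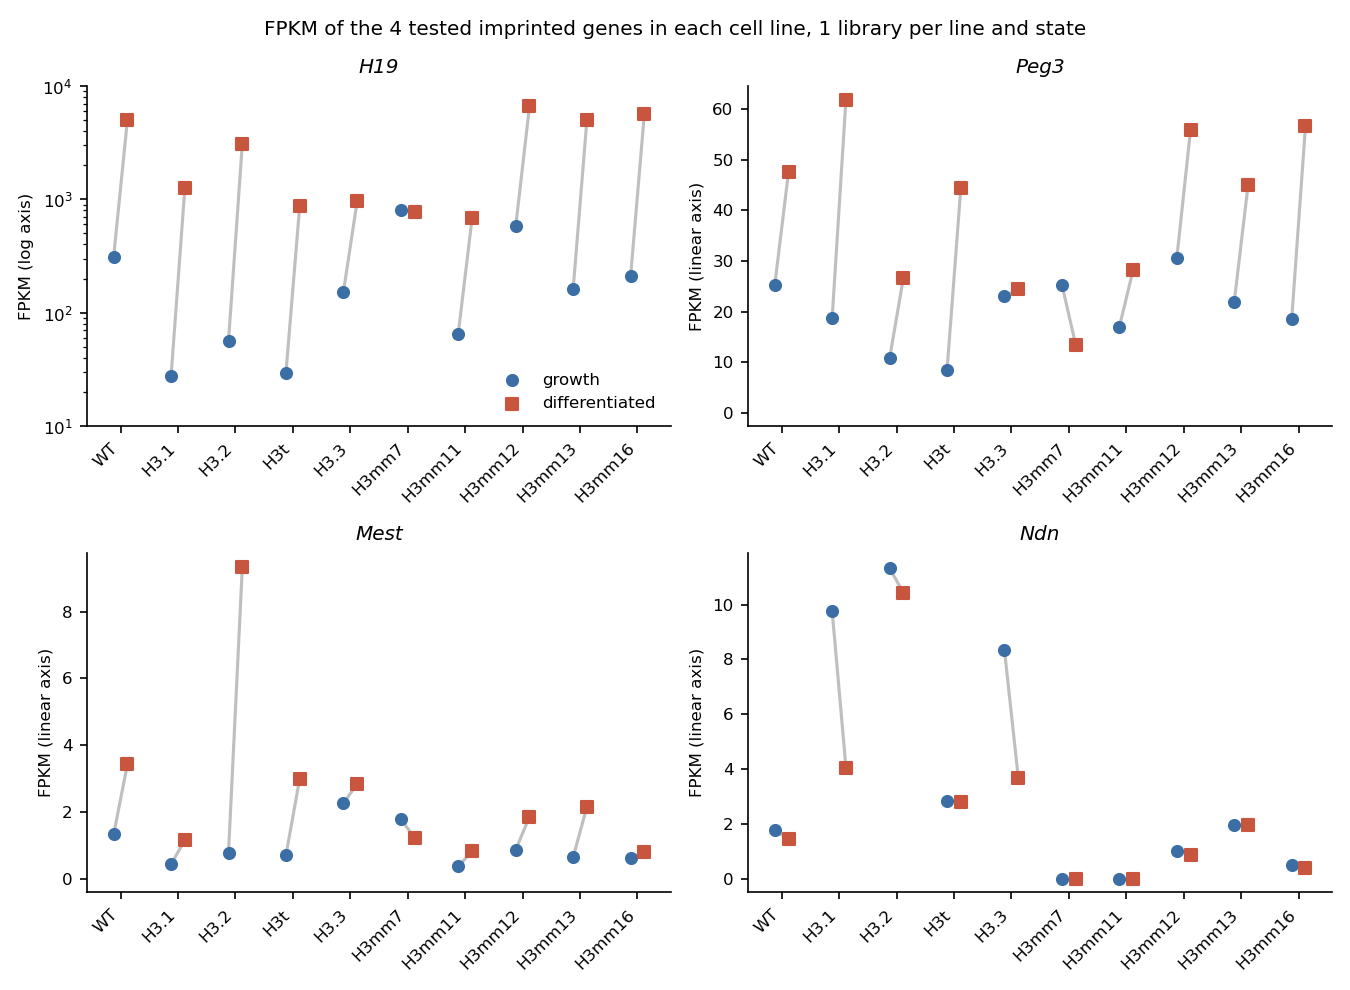
FPKM of H19 (log axis), Peg3, Mest and Ndn (linear axes) in the growth (circle) and differentiated (square) library of each of 10 lines, joined by a line, with 1 library per point and no error bar. H19, Peg3 and Mest are higher in the differentiated library of 9 lines and not in H3mm7, while Ndn keeps the order of the lines in both states.

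H3mm7 was the exception for H19, Peg3 and Mest alike. The same was so for Grb10, but at levels below 1 FPKM that cannot carry a comparison between lines. Over all genes tested, 31.7% were higher in the differentiated library of at least 9 of 10 lines, and 3.44% were higher in the other 9 lines and not in H3mm7. In the growth library of H3mm7, H19 was the highest of the 10 lines, Grb10 was the highest, at 0.362 FPKM, and Mest the second highest, at 1.80 FPKM. The same library had the highest summed level of the 6 genes of differentiated muscle in growth (40.4 FPKM) and the highest Myog (23.1 FPKM), the gene of the transcription factor myogenin. The lowest growth levels of H19, in H3.1, H3t and H3.2, were in the libraries with the lowest sums of these 6 muscle genes, 1.38, 3.75 and 5.11 FPKM. Between these ends the orders differed. H3mm11 had a sum of 19.3 FPKM with H19 at 65.4 FPKM, and WT had 12.8 FPKM with H19 at 311 FPKM. After differentiation the sum was 1366 FPKM in H3mm11, 1554 in H3.1, 1863 in H3mm7, 1944 in H3.3 and 2127 in H3t, and these 5 lines also had the lowest H19. The part of these muscle genes in the H19 levels was not tested.

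The promoters of Peg3 and Mest, which were both higher in differentiated cells, and of Ndn, which differed between lines, are shown next. Each window runs from 250 bases before to 50 bases after the start of transcription, from RefSeq on GRCm38.p6, written 5′ to 3′ along the gene. Capitals mark CANNTG, the E-box core that proteins of the Myod1 family bind, which reads the same on both strands.
Mest, chr6:30737800-30738099, plus strand: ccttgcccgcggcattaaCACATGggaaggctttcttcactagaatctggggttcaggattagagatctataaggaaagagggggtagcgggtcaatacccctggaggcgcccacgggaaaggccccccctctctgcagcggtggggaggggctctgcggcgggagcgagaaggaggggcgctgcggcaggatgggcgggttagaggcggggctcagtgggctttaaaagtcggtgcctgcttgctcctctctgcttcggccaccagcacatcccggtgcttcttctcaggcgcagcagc
Peg3, chr7:6730370-6730669, minus strand: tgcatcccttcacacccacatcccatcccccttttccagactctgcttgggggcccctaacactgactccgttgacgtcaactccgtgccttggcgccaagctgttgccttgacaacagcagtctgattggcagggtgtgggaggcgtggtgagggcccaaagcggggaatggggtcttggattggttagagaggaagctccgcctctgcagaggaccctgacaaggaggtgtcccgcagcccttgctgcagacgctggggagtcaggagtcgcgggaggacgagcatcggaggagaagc
Ndn, chr7:62348027-62348326, plus strand: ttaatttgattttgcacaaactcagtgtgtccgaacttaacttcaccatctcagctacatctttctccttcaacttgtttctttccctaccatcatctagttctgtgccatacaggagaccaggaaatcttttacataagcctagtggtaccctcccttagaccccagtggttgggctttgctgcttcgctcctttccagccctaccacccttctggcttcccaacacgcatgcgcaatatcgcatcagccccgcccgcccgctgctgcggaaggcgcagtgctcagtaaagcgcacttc
The Mest window shown holds 1 CANNTG, which overlaps no other, and the Peg3 and Ndn windows hold none. RefSeq gives Mest 2 further windows, 1 of which starts 3 bases downstream and has the same counts, while the other, at chr6:30733256-30733555, holds 2 CANNTG and 8 CpG. Of 32851 RefSeq promoter windows of 300 bases in mouse, 72.3% hold at least 1. The number of CpG dinucleotides was 17 in the Mest window shown, 13 in that of Peg3 and 11 in that of Ndn, and the median over all windows was 7. Binding and methylation at these windows were not analysed here.

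Among the genes below the filter, Grb10 was between 0.00475 FPKM (H3.1) and 0.362 FPKM (H3mm7) in growth and between 0.156 FPKM (H3mm7) and 0.971 FPKM (WT) in differentiated cells. Its level was the higher in the differentiated library of 9 lines, again without H3mm7. With no filter on low values, the Grb10 difference was 0.28 on the log2(FPKM + 1) scale (limma adjusted p = 0.00996), under the threshold on size. Plagl1 was at most 0.115 FPKM, in the H3.3 growth library, and was lower in the differentiated library of all lines but WT. Meg3 was at most 0.0183 FPKM and was listed at 0 in 12 of 20 libraries. Dlk1 was above 0 in 1 library only, H3.3 in growth, at 0.00747 FPKM. Levels this low cannot carry a comparison between lines. Meg3 overlaps Gm17639, a noncoding gene of the opposite strand.

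The next question was whether cells with a GFP-H3 of the H3.3 type differ from those with the H3.1/H3.2 type. None of the 4 genes was called by limma, although 3 had an unadjusted p below 0.05 in growth and 2 in differentiated cells, where 9.39% and 20.1% of all genes tested did. Over all genes, 0.21% were called in growth and 0.749% in differentiated cells, so few calls were made at all between 6 and 3 lines. In growing cells, H19 was between 65.4 and 799 FPKM in the 6 H3.3-type lines and between 27.6 and 56.6 FPKM in the 3 H3.1/H3.2-type lines. These ranges did not overlap, as was so in the same direction for 5.93% of all genes tested. The difference was 2.66 on the log2(FPKM + 1) scale (SE 0.83, 95% interval 0.92 to 4.40) and missed the threshold after adjustment (limma adjusted p = 0.248). The 3 growth libraries with the lowest sums of muscle genes are those of the H3.1/H3.2-type lines, so the type of H3 and this difference in muscle genes cannot be told apart. After differentiation the ranges of H19 overlapped, with 678 to 6619 FPKM in H3.3-type and 881 to 3076 FPKM in H3.1/H3.2-type lines, and the difference was 0.51 (SE 0.83, limma adjusted p = 0.781), with 0.12 without the H3t line, 1.02 without the H3.2 line and 0.20 with quantile normalization.

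For Ndn the difference had the opposite sign. In growth it was between 0 and 8.33 FPKM in the H3.3-type lines, with a median of 0.773, and between 2.86 and 11.3 FPKM, with a median of 9.76, in the H3.1/H3.2-type lines. The difference was -1.92 (SE 0.65, 95% interval -3.28 to -0.56, limma adjusted p = 0.295). In differentiated cells it was -1.73 (SE 0.65, 95% interval -3.08 to -0.37, limma adjusted p = 0.142). The intervals between types, here and for H19, treat the libraries of a line as independent. Ndn of a line was alike in both states, so its intervals may be too narrow. With the line as a block, the limma adjusted p for Ndn was 0.230 in growth and 0.104 in differentiated cells. The GFP-H3.3 line lay among the H3.1/H3.2-type lines in both states and made the groups overlap. With a pseudocount of 0.01 FPKM the differences were -4.15 in growth and -4.27 in differentiated cells, and they were still not called. Levels at or near 0, as in H3mm7 and H3mm11, enter with a size that the pseudocount sets, so the size of the difference is poorly determined.

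Peg3 differed between the types by 0.84 in growth (SE 0.38, limma adjusted p = 0.491) and by -0.33 in differentiated cells (SE 0.38, limma adjusted p = 0.677). The latter was -0.05 without the H3.1 line and -0.64 without the H3.2 line. Mest differed by 0.28 in growth (SE 0.38, limma adjusted p = 0.867) and by -0.82 in differentiated cells (SE 0.38, limma adjusted p = 0.231). The former was 0.14 without the H3.3 line and 0.17 with quantile normalization and 0.52 with a pseudocount of 0.01 FPKM, and the latter was -0.22 without the H3.2 line and -1.35 without the H3.1 line. Whether the types differ in the change with differentiation was tested by the interaction of type and state. It was -2.16 for H19 (95% interval -4.61 to 0.30, limma adjusted p = 0.612), -1.17 for Peg3 (-2.29 to -0.04, adjusted p = 0.534), -1.11 for Mest (-2.23 to 0.02, adjusted p = 0.558) and 0.20 for Ndn (-1.72 to 2.12, adjusted p = 0.974). Without the H3.2 line the interaction of Mest was -0.57. By limma, 0 of 10954 genes (0%) were called for this interaction, while 1002 had an unadjusted p below 0.05, Peg3 among them. The intervals above leave out the pairing of the libraries of a line, so differences in level between lines enter them. With the line as a block, 3 genes were called, none of them H19, Peg3, Mest or Ndn. The limma adjusted p was then 0.294 for H19, 0.265 for Peg3, 0.233 for Mest and 0.767 for Ndn.

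**Figure D3:**
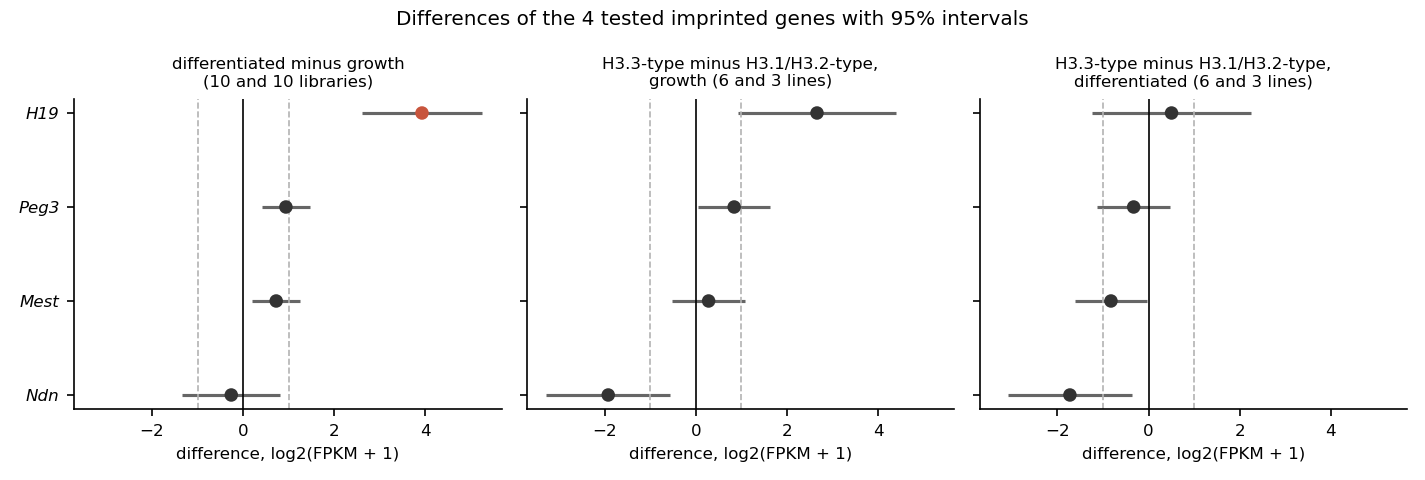
Differences of the 4 tested imprinted genes on the log2(FPKM + 1) scale between states (left) and between types of H3 in growth (middle) and in differentiated cells (right), with 95% intervals from limma as bars, 0 as a solid line and the size threshold of 1 in either direction as dashed lines. The red point, H19 between states, is the only difference called.

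The study set H3.3, H3mm7 and H3mm11 apart from the other lines on the basis of these same libraries, so their values are given without a test. It also measured some of the genes behind that grouping by RT-PCR amplicon sequencing with 3 biological replicates, which was not analysed here. In differentiated cells H19 was 678 to 964 FPKM in these 3 lines, 881 to 6619 FPKM in the 6 other GFP-H3 lines and 5027 FPKM in WT. Peg3 was 13.4 to 28.3 FPKM in the 3 lines, 26.7 to 61.9 FPKM in the 6 others and 47.6 FPKM in WT. In growing cells the 3 lines lay within the range of the 6 others for Peg3 (17.0 to 25.3 against 8.45 to 30.6 FPKM). Ndn was at or near 0 in H3mm7 and H3mm11 in both states and at 8.33 and 3.71 FPKM in H3.3, so these 3 lines did not share a level of Ndn.

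The lines differed from each other in each tested imprinted gene more than in most genes, and most of all in H19 and Ndn. The SD over the 9 GFP-H3 lines of a line's mean level, on the log2(FPKM + 1) scale, was 1.25 for H19 and 1.30 for Ndn, ranks 37 and 34 of 10954 genes. It was 0.43 for Peg3 and 0.48 for Mest, above that of 90.2% and 92.7% of genes, and the median over all genes was 0.23. The SD of the change with differentiation was 1.81 for H19, 0.92 for Peg3 and 0.81 for Mest, against a median of 0.29 over all genes, and it was 0.44 for Ndn. H19 thus varied between lines both in level and in change, and Ndn mainly in level. Over the 10 lines, Pearson's r between the growth and the differentiated level was 0.96 for Ndn, 0.38 for H19, 0.23 for Mest and -0.01 for Peg3, given as a description.

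**Figure D4:**
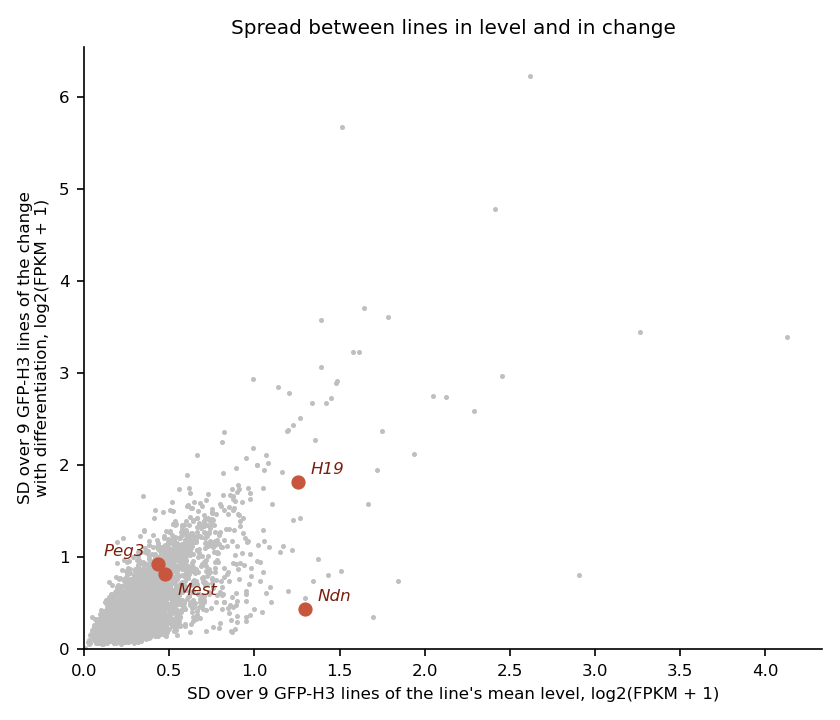
For each of 10954 genes tested (grey), the SD over 9 GFP-H3 lines of the line's mean level (horizontal axis) and of the change with differentiation (vertical axis), both on the log2(FPKM + 1) scale, with the 4 imprinted genes in red. Ndn has a large spread in level, 1.30, beside a spread in change of 0.44, and H19 has 1.25 and 1.81.

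The genes whose pattern was most like that of each imprinted gene were found by Pearson's r on log2(FPKM + 1) over the 20 libraries, which share lines and states, so r is a description. For H19 they were Aldh3b1 (0.97), an aldehyde dehydrogenase, Ank1 (0.96), an ankyrin of the membrane skeleton, and Hes6 (0.96), a basic helix-loop-helix regulator. After the mean of each state was subtracted they were Aldh3b1 (0.92), Tnnt1 (0.90), the slow skeletal troponin T, and Hes6 (0.89). For Peg3 they were Mtch1 (0.95), Dab2ip (0.93) and Gatsl2 (0.92), and after subtraction Islr (0.93), Dab2ip (0.92) and Mtch1 (0.91). Mest had weaker matches, with Bet1l, Acad10 and Mmachc at 0.77 each and, after subtraction, Taf9b (0.76), Nfib (0.72) and Pet2 (0.70). For Ndn they were Col1a1 (0.85), the collagen I chain, Magea3 (0.78), another MAGE family gene, and Omd (0.78), and after subtraction Col1a1 (0.85), Zfp12 (0.83) and Bre (0.82). Between the imprinted genes, r was highest for H19 and Peg3, at 0.81 over the libraries and 0.67 after subtraction, and Ndn had an r of -0.27 with H19.

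A list of 40 other genes named as imprinted was read in the same way. Which parental copy was read was not measured, so imprinting in C2C12 cells is not shown for any gene here. The table held 39 of them, 18 had a mean of at least 1 FPKM, 6 were called higher in differentiated cells, none lower, and 12 were not called. Over all genes tested, 8.87% were called higher and 8.41% lower. Of the 12, 4 were lower by limma with an adjusted p below 0.05 but by less than the size threshold, and 28.1% of all genes tested were lower with an adjusted p below 0.05, whatever the size. They were Peg10 (-0.99) and Peg12 (-0.98), both just short of the threshold, Mcts2 (-0.38) and Inpp5f (-0.28), which were chosen after their values were seen. Of the same 12, Gatm (0.94), Copg2 (0.72), Zrsr1 (0.58), Sgce (0.57) and Gnas (0.50) were higher in that way, also under the size threshold. The median difference of the 18 was 0.57 on the log2(FPKM + 1) scale, beside 0.04 over all genes tested. The list was chosen with earlier results of these data known, so its counts and median are a description only. The 5 called genes with the largest change were Dcn, which encodes decorin, at 4.50 (SE 0.41), Igf2 at 3.07 (SE 0.82), Ddc, which encodes an amino acid decarboxylase, at 1.91 (SE 0.27), the noncoding Airn at 1.83 (SE 0.16) and Zim1, a neighbour of Peg3, at 1.53 (SE 0.30). The sixth, Igf2r, the receptor that clears Igf2, was higher by 1.25 (SE 0.20). Gnas, at 0.50, and Snrpn, at -0.15, were not called.

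Igf2, the neighbour of H19, had a median of 2.09 FPKM in growth and 41.5 in differentiated libraries. In differentiated cells it was 150 FPKM in WT, 74.1 in H3.1, 14.2 in H3.2, 22.8 in H3mm7, 28.5 in H3mm11, 106 in H3mm12, 78.5 in H3mm13 and 54.6 in H3mm16, and it was listed at 0 in H3t and H3.3. It was higher in the differentiated library of 8 of 10 lines, H3mm7 included, where H19 was not. In H3t and H3.3 the listed 0 stands beside 881 and 964 FPKM of H19 and may be a failed estimate. The difference of 3.07 given for Igf2 includes these libraries at the listed 0, and no difference without them is given. Cdkn1c, a maternally expressed inhibitor of the cell cycle, was at most 2.29 FPKM and had a mean of 0.328 FPKM. Rian, in the region of Meg3, was at most 0.0280 FPKM, like Meg3 itself near 0. Between the types of H3 in growth, 1 of the 18 genes, Peg12, was called, as were 0.21% of all genes tested. Its difference was -1.08 for H3.3-type lines (limma adjusted p = 0.0188). Peg12 had a mean of only 1.14 FPKM, and whether its call holds under other settings is not given. In differentiated cells 0 of 18 were called, and 3 had an unadjusted p below 0.05, as had 20.1% of all genes tested.

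**Figure D5:**
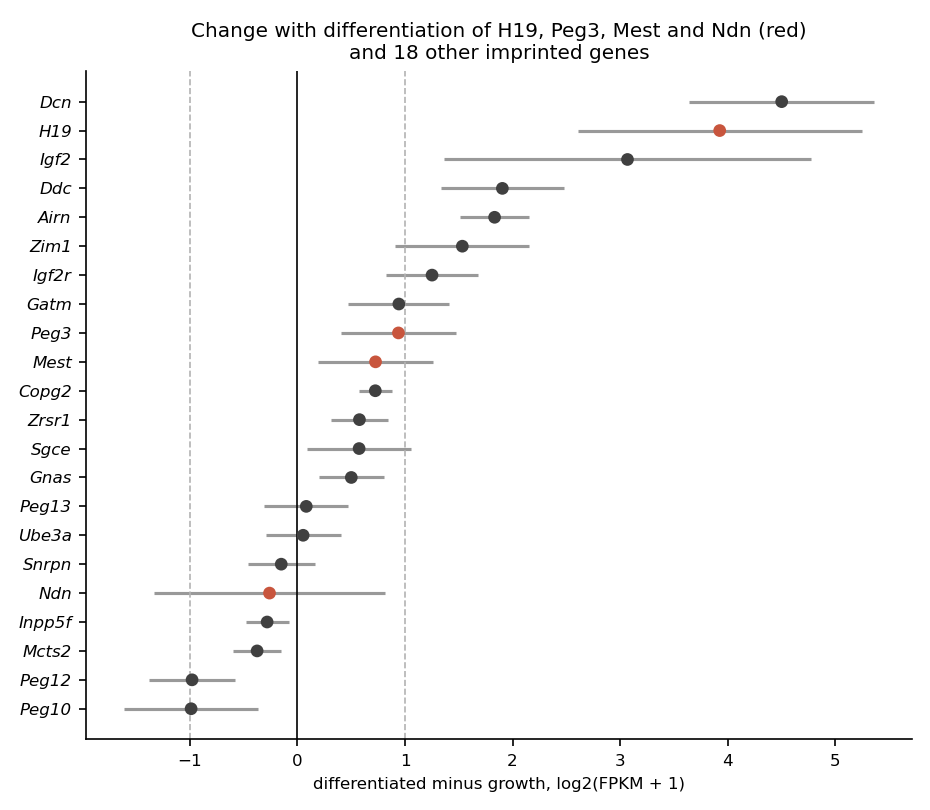
Differences between differentiated and growing cells on the log2(FPKM + 1) scale for H19, Peg3, Mest and Ndn (red) and 18 other imprinted genes (black), with 95% intervals from limma as bars and the size threshold of 1 in either direction as dashed lines. H19 stands second, after Dcn, and Ndn is near 0 with a wide interval.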

How the data were processed

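mRNA-Seq measured poly(A)+ RNA. Per the study's methods, reads from GFP-H3 cells were mapped to mm9 by the authors with TopHat 2.0.8, and the deposited FPKM come from cuffdiff (Cufflinks 2.0.1, default parameters). How WT reads were mapped is not given in the sources used here. Read depth is unknown and low FPKM values gave no clean read steps, so precision rests on the number of lines.

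On log2(FPKM + 1), which understates fold changes of low genes, limma with its trend and robust settings tested genes with a mean of at least 1 FPKM over 20 libraries, by state and by H3 type (WT left out), with an interaction. p-values measure the spread between lines only. The 2 libraries of a line come from the same cells and deviated together (r 0.27 to 0.88, best with its own line in 10 of 10), so they are paired. The main fits treat them as independent, and a fit with the line as a block was an alternative. Other pseudocounts, filters, scalings and limma settings were tried, as was leaving out each line. The code was tested on simulated data.

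The 8 genes, the list of other imprinted genes and the markers were chosen with earlier results of these data known. From the list, the text names the 5 called genes with the largest change in each direction and Igf2, Cdkn1c, Rian, Igf2r, Gnas and Snrpn (Mirg, also in the rule, was not analysed here), and for each tested gene the 3 genes with the highest r. Copg2 was added for its overlap and Myog as a marker. The uncalled genes of the list with an adjusted p below 0.05 were added after their values were seen. Positions are from GENCODE vM1 (mm9). Sequences are from RefSeq (GRCm38.p6), which gave a promoter for 7 of the 8 genes. 3′-seq and ChIP-seq were not analysed here. Software was R 4.3.3 with limma 3.58.1, and Python 3.11.15 with pandas 2.3.3, numpy 2.4.6 and matplotlib 3.10.9.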

Additional observations from a re-analysis of the deposited data

Results flagged for a closer look

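For each gene and state, the highest and the lowest of the 10 libraries on the log2(FPKM + 1) scale were compared with the nearest other one, and 4 of 15 groups of values held a library far from the others. Chance gives about 1 in 20, a rate that does not hold for Meg3 and Dlk1, which were listed at 0 in 6 and 9 of the 10 libraries concerned. Mest in the differentiated H3.2 line was 9.32 FPKM, with WT next at 3.44 FPKM. Grb10 in differentiated WT cells was 0.971 FPKM, with H3mm13 next at 0.498 FPKM. Meg3 in the differentiated H3mm12 line was 0.00837 FPKM and Dlk1 in the growing H3.3 line was 0.00747 FPKM, both close to 0.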

How the results depend on the processing

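For the 4 tested genes, 266 of 272 differences recomputed under alternative settings kept their direction and their side of the threshold. The exceptions were Mest between states, called with a pseudocount of 0.1 or 0.01 FPKM, Peg3 between states, called without H3.3 or H3mm7, and the interaction of Ndn, which turned to -0.11 with a pseudocount of 0.01 FPKM and ranged from -0.14 (without H3.1) to 0.39 (without H3t) when a line was left out. The number of these genes called between states was thus 2 with either smaller pseudocount and from 1 to 2 when a line was left out. H19 between states ranged from 3.70 to 4.37. None of the 4 genes was called between the types of H3 under any alternative run. Other filters, other limma settings and the line as a block leave the size of a difference unchanged and can move only its adjusted p. Between states, the run without WT is counted both as a setting and as a line left out. The 266 of 272 is thus no count of independent checks.

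Counts over all genes between states stayed within 1429 and 2348, beside 1893. Between the types in growth, 23 genes became 46 with a pseudocount of 0.1 FPKM, 70 with 0.01 FPKM, 14 without a filter and 14 with a minimum mean of 5 FPKM, and 2 (without H3.1) to 25 (without H3mm11) when a line was left out. In differentiated cells, 82 became 134 with 0.1 FPKM, 39 without a filter and 49 with a minimum mean of 5 FPKM, and 3 (without H3.1) to 295 (without H3.2) when a line was left out. For the interaction, 0 became 2 without a filter, 1 with a minimum mean of 5 FPKM and 4 with quantile normalization, and 0 to 2 when a line was left out. The line as replicate block gave 3 genes for the interaction and changed no call of the 4 genes. The cause of these shifts was not tested.

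With 3 lines of the H3.1/H3.2 type, 1 library per line and state, and unknown read depth, differences between types and the levels of Grb10, Plagl1, Meg3 and Dlk1 are poorly determined.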
